A study of Mus musculus with 2 samples.

Results

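Cells of a MyoD-KO clone of induced myogenic progenitors were divided by whether a transcript of Pax3 was counted in them. A cell entered if it had at least 1000 genes detected, at most 15% mitochondrial transcripts, at least 20000 unique molecular identifiers (UMIs, each standing for 1 captured transcript), at most 1 Myog UMI, and Acta1, Actc1, Myh3, Mylpf and Myl1 together under 0.5% of its UMIs. Of the 7670 cell barcodes of the KO library, and 15861 in the whole series, 2777 met this rule. Pax3 was counted in 354 of them. Cells in which Crabp1, Twist2 and Dcn, genes of fibroblasts, reached at least 3 per 10000 UMIs were kept apart. This gave 338 Pax3-positive and 2275 Pax3-zero cells with low fibroblast markers, and 16 Pax3-positive and 148 Pax3-zero cells with high fibroblast markers. The groups were chosen by the Pax3 count itself, so the level of Pax3 in them describes the rule and is no finding.

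The series holds 2 single-cell libraries, 1 from a MyoD-KO clone and 1 from a MyoD-WT clone, both of the strain given as Myod1tm1Jae. Mouse embryonic fibroblasts of each genotype had been converted by overexpressing Myf6, a muscle regulatory factor, together with forskolin (which raises cAMP), RepSox (which inhibits the TGF-beta receptor) and CHIR99021 (which inhibits GSK3). The clones no longer depended on Myf6, and at passage 4 their medium held 5 µM forskolin, 5 µM RepSox, 3 µM CHIR99021 and 10 ng/mL bFGF. Each genotype is thus a single clone and a single library, and cells of a library are not replicates, so no test between genotypes or between the groups of cells is given, and every interval below covers counting error only.

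Pax3 is a paired-box transcription factor of the dermomyotome, the epithelium from which the muscle of trunk and limbs arises, and of the neural crest. In muscle precursors it acts upstream of Met, whose receptor is needed for migration into the limb, and of Dmrt2, Fgfr4 and Itm2a, and it shares part of its role with its close relative Pax7. In adult muscle Pax7 marks the satellite cells, the resident stem cells, while Pax3 is kept in the satellite cells of some muscles only.

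The KO library held 282739488 UMIs (median 37369 per barcode) and the WT library 285232252 (median 34170). The 2 libraries shared 14 barcodes. Myod1 3' tags were counted in both genotypes, and since the deleted stretch is not described in the labels, the tag count does not check the genotype. Pax7 and Myf5, the defining progenitor markers, were counted in most cells of both Pax3 groups with low fibroblast markers. Among cells with high fibroblast markers, the comparison limited to cells with a Pax7 UMI kept 7 Pax3-positive cells. Among the KO cells that met the rule, 20 of the 338 Pax3-positive and 74 of the 2275 Pax3-zero cells with low fibroblast markers were marked as possible doublets.

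Pax3 (ENSMUSG00000004872) was a KO transcript in this series. The KO library held 988 Pax3 UMIs in 593 barcodes and the WT library 1 UMI in 1 barcode. Among 3982 WT cells that met the same rule, that cell was the only one with a Pax3 UMI. Of 2951 WT cells outside the rule 0 had one, which at a limit of 3 counts, not an exact interval, allows a share of up to 0.102%. In KO cells with low fibroblast markers the share was 12.9% (exact 95% interval 11.7 to 14.3%) at a median of 38075 UMIs, and 8.34% (7.31 to 9.47%) once every cell was thinned to 20000 UMIs. The share in cells with high fibroblast markers was 9.76% (5.68 to 15.4%) at a median of 45613 UMIs, and 6.10% (2.96 to 10.9%) after thinning.

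The share of KO cells with a Pax3 UMI was lower where muscle genes were higher. Cells with at least 2 Myog UMIs but muscle genes under the limit had Pax3 in 11.4% of 1631 cells, and in 6.07% (4.96 to 7.34%) after thinning. With muscle genes at 0.5 to 5% of UMIs it was in 5.27% of 531 cells at a median of 57683 UMIs, and in 1.69% (0.778 to 3.19%) after thinning. With muscle genes at 5% or more it was in 4 of 444 cells, or 0.901% (0.246 to 2.29%), at a median of 52295.5 UMIs, and in 0.225% after thinning. That last population is differentiated muscle of the same library and was taken as a comparison level. The cells with low fibroblast markers stood at 5.36 Pax3 UMIs per 1000000 UMIs (CPM) and the differentiated cells at 0.245 CPM. Free RNA was not estimated, and whether the Pax3 UMIs of the differentiated cells came from it was not tested.

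Pax3 UMIs were unevenly spread over the 2613 cells with low fibroblast markers. The cells with 0, 1, 2, 3, 4 and 5 UMIs numbered 2275, 207, 72, 32, 14 and 11, and 2 cells had 6 or more. If every cell had the same Pax3 level, a Poisson draw at each cell's depth would give 507 cells with at least 1 UMI, where 338 were counted, and 57.6 cells with at least 2, where 131 were counted. For at least 3 UMIs the numbers were 4.96 and 59. Cells with at least 2 UMIs held 363 of the 570 Pax3 UMIs (63.7%). The plot of Pax3 UMIs per cell sets the observed counts beside the uniform level. These counts describe the gene of the rule, and no other gene is set beside it. Whether such a spread is particular to Pax3 was not tested.

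**Figure D1:**
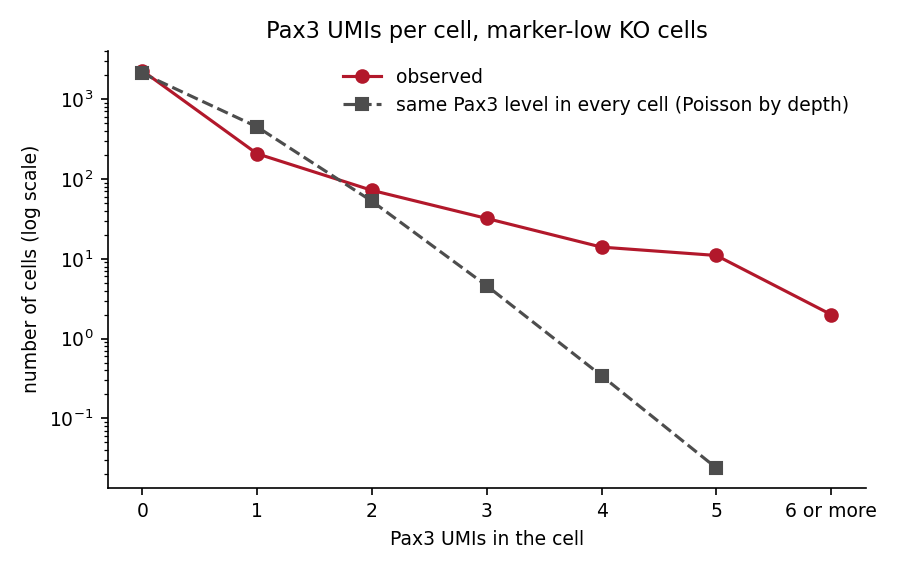
Number of KO cells with low fibroblast markers (log scale) by the Pax3 UMIs counted in the cell, observed (circles) and at the same Pax3 level in every cell, drawn by Poisson at each cell's depth (squares). Fewer cells than at a uniform level had 1 UMI (207 against 449) and more had 3 (32 against 4.59).

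At this depth a zero count depends on sampling. When the Pax3-positive cells used in the comparison were thinned to 20000 UMIs, 64.6% of them still had a Pax3 UMI, so the rest would have been scored as Pax3-zero. By depth, Pax3 was counted in 10.3% of cells with 20000 to 30000 UMIs, 13.3% at 30000 to 40000, 12.9% at 40000 to 60000 and 17.7% above 60000, while its level was at 5.59, 6.02, 5.13 and 4.33 CPM. The comparison below therefore paired each Pax3-positive cell with 2 Pax3-zero cells within 10% of its depth, and cells above and below 40000 UMIs were also compared separately. Just inside and outside the limits of the rule, Pax3 was counted in 5 of 35 cells with 20000 to 22000 UMIs and 2 of 21 with 18000 to 20000, in 128 of 1041 cells with 1 Myog UMI and 58 of 389 with 2, and in 1 of 14 cells with fibroblast markers at 2 to 3 per 10000 and 2 of 15 at 3 to 4. No cell had muscle genes at 0.5 to 0.6%, and 0 of 3 cells at 0.4 to 0.5% had Pax3.

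Pax3-positive and Pax3-zero progenitors with low fibroblast markers differed in few transcripts. Matching kept 336 positive cells (14138267 UMIs, median 38694.5 per cell) and 672 zero cells (28234682 UMIs, median 38685.5), leaving out 2 positive cells without close partners. A gene was called where its summed level differed at least 1.5-fold and reached 10 CPM in the higher group. Of 8558 genes tested, 10 were higher in Pax3-positive cells, Pax3 itself among them (0.117%), and 18 were lower (0.210%), 28 either way (0.327%). The levels of 8071 genes (94.3%) lay within 1.2-fold, and the median log2 ratio was 0.02. The positive and zero cells also resembled each other in genes detected (medians 6395 and 6357.5), mitochondrial share (7.54% and 7.59%) and muscle gene share (0.0551% and 0.0553%). By cell cycle scores 28.6% and 24.4% of them were in G1, 19.6% and 25.3% in S and 51.8% and 50.3% in G2M.

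**Figure D2:**
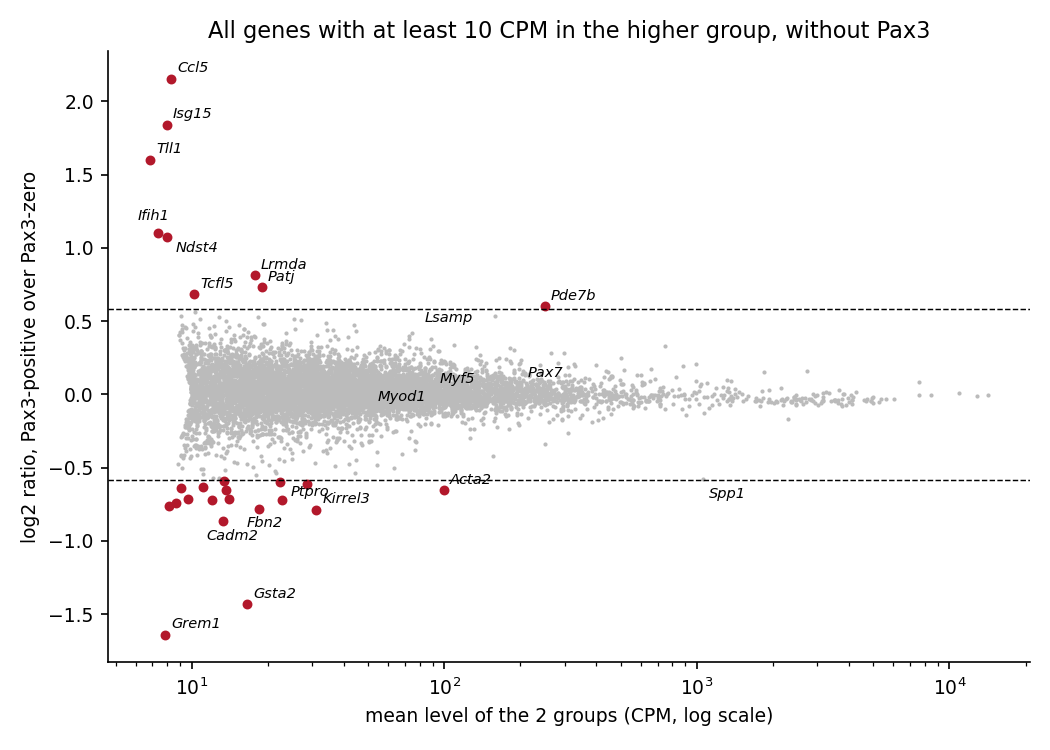
Log2 ratio of Pax3-positive over Pax3-zero cells against mean level (CPM, log scale) for each gene reaching 10 CPM in either group, without Pax3, with the dashed lines at 1.5-fold and the genes past them in red. Among genes above 100 CPM on the horizontal axis only Pde7b lay past the upper line, and most called genes lay at the low end of the axis.

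Of the muscle regulatory factors none passed 1.5-fold. Pax7 was at 207 CPM in Pax3-positive and 197 CPM in Pax3-zero cells (ratio 1.05, counting interval 1.01 to 1.10). It was counted in 93.5% and 90.5% of cells after thinning, with an interquartile range over cells of 105 to 269 CPM and 90.9 to 274 CPM, so the groups overlapped over nearly their whole range. Myf5, which acts beside Pax7 in determination, was at 91.7 and 89.7 CPM (ratio 1.02, 0.956 to 1.09). Myod1 tags were at 49.9 and 53.02 CPM (ratio 0.942, 0.860 to 1.03). Myf6, which had driven the conversion, was at 7.36 and 6.09 CPM, and Myog, which the rule limits, at 8.91 and 10.6 CPM. The log2 ratio of Myf6 depended on the cells taken, at -0.30 under 40000 UMIs, 0.68 in deeper cells and 0.72 with at least 2 Pax3 UMIs, the last 2 past 1.5-fold. WT cells under the same rule had 155 CPM of Pax7, 23.4 of Myf5, 113 of Myod1 and 0.353 of Myf6.

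Among the 10 genes with the highest ratios at 20 CPM or more, 3 passed 1.5-fold. Lrmda, known for a role in melanocyte differentiation, was at 22.6 CPM in Pax3-positive and 12.9 CPM in Pax3-zero cells (ratio 1.76, 1.51 to 2.05). It was counted in 22.3% and 17.1% of the cells. Patj, a scaffold of the Crumbs polarity complex, was at 23.6 and 14.2 CPM (ratio 1.66, 1.43 to 1.92) and counted in 39.3% and 30.2% of cells. Pde7b, a phosphodiesterase that degrades cAMP, was at 302 and 198 CPM (ratio 1.52, 1.46 to 1.58) and counted in 87.8% and 80.8% of cells. Its median over cells was 182 and 120 CPM, with interquartile ranges of 56.6 to 444 and 30.9 to 271 CPM, so most cells of both groups lay in a shared range. Under TMM scaling, which moved all log2 ratios by -0.03, Pde7b came to 0.58 on the log2 scale and did not reach 1.5-fold.

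The other 7 of these genes had ratios from 1.39 to 1.45, short of 1.5-fold. Lsamp, a cell adhesion protein of the IgLON family, was at 188 and 130 CPM (ratio 1.45, 1.38 to 1.52) and counted in 64.0% and 50.6% of cells. Bnc2, a zinc finger protein, was at 32.0 and 22.5 CPM, and Car2, a carbonic anhydrase, at 29.8 and 20.9 CPM. Slc43a2, an amino acid transporter, was at 39.9 and 28.4 CPM. Cyria, a regulator of Rac1, the calcium sensor Ncald and the death domain adaptor Cradd were at 21.6, 22.6 and 22.4 CPM in Pax3-positive cells and at 14.98, 16.1 and 16.1 CPM in Pax3-zero cells.

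Among the 10 genes with the lowest ratios at 20 CPM or more, 7 passed 1.5-fold. Acta2, the smooth muscle actin that also appears early in cultured myogenic and fibroblast cells, was the most abundant of these 7, at 77.5 CPM in Pax3-positive and 122 CPM in Pax3-zero cells (1.57-fold lower). It was counted in 67.9% and 70.5% of cells. Fbn2, a fibrillin of microfibrils, was at 13.6 and 23.3 CPM. Kirrel3, an adhesion protein, was at 22.9 and 39.4 CPM and counted in 19.1% and 28.1% of cells, and Ptpro, a receptor tyrosine phosphatase, was at 17.3 and 28.5 CPM. Nnat, an imprinted gene, was at 22.8 and 34.7 CPM and Cthrc1, a secreted protein, at 17.8 and 27.0 CPM. Of these 7 genes Fbn2 alone stayed past 1.5-fold in all 16 alternative settings that recomputed the ratios. In cells under 40000 UMIs the log2 ratio was -0.35 for Acta2, -0.35 for Kirrel3, -0.28 for Nnat and -0.14 for Cthrc1, all short of 1.5-fold, and in deeper cells it was -0.84, -1.21, -0.85 and -0.99. Ptpro stayed past 1.5-fold in 12 of the 16 settings, with -0.56 as its value nearest 0.

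Gsta2, a glutathione transferase, had the lowest ratio of the 10, at 8.98 and 24.2 CPM, but was counted in 10.1% and 9.82% of cells. In Pax3-positive cells 5 cells held 55.9% of its UMIs, and in Pax3-zero cells 5 cells held 58.4%. Without the 1% of cells with most of each gene's UMIs, a setting chosen after the data were seen, its log2 ratio moved from -1.43 to -0.65, and in cells with a Pax7 UMI it was -0.45, short of 1.5-fold. Spp1, the secreted protein osteopontin, was at 848 and 1265 CPM, short of 1.5-fold, and its median over cells was 110 and 104 CPM, so the cells in the middle of both groups were alike. Selenbp1 was at 14.6 and 21.4 CPM and the amino acid transporter Slc7a1 at 17.7 and 25.7 CPM, also short of 1.5-fold.

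**Figure D3:**
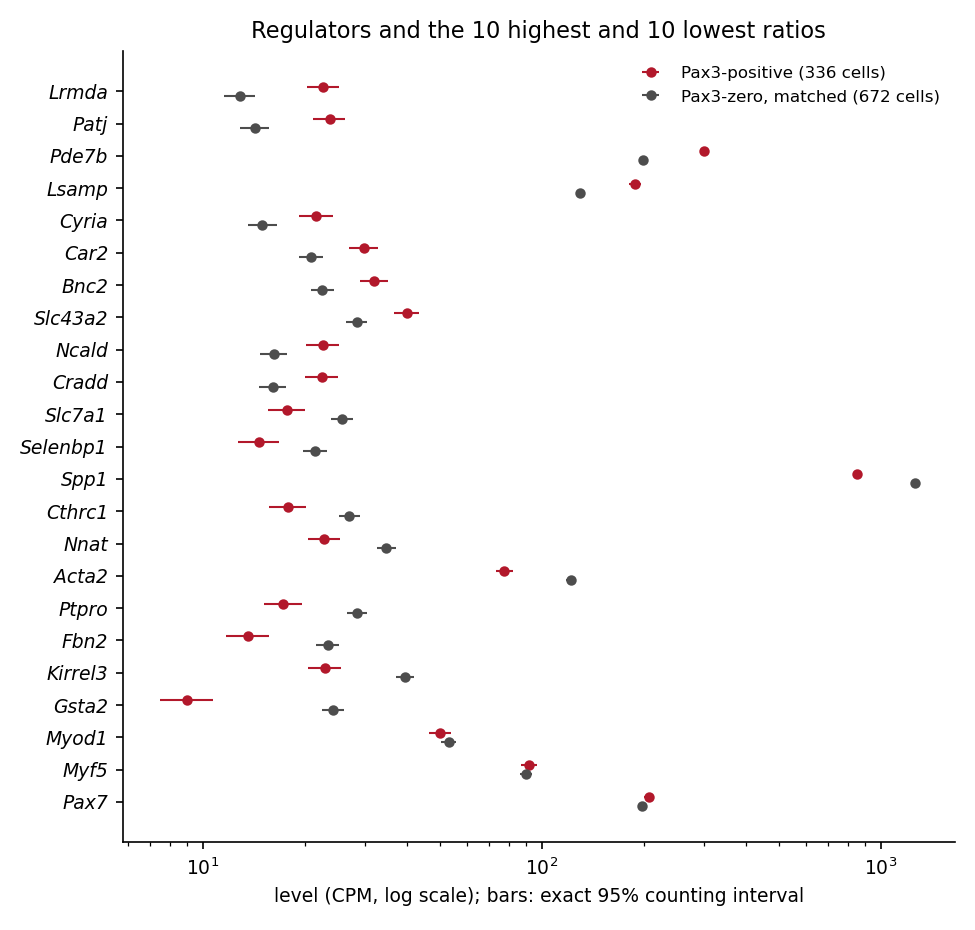
Levels (CPM, log scale) in 336 Pax3-positive and 672 depth-matched Pax3-zero cells of the 10 genes with the highest and the 10 with the lowest ratios and of Pax7, Myf5 and Myod1, with exact 95% counting intervals. Pax7 lay at 207 and 197 CPM, and the gap was wider for Pde7b (302 and 198 CPM) and for Acta2 (77.5 and 122 CPM).

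The remaining called genes lay under 20 CPM and fell outside the rule for named genes, Isg15 and Grem1 excepted, so the others were picked after their values were seen. On the higher side Ndst4, an enzyme of heparan sulfate synthesis, was at 10.8 and 5.14 CPM (ratio 2.11, 1.67 to 2.66), and Tcfl5, a basic helix-loop-helix factor, at 12.7 and 7.86 CPM and counted in 30.4% and 20.7% of cells. Tll1, a tolloid protease, was at 10.3 and 3.40 CPM, with 75.3% of its UMIs in the positive group in 5 cells, and its log2 ratio was 0.03 in cells under 40000 UMIs in place of 1.60. On the lower side, among others, were Cadm2 (9.41 and 17.1 CPM), Bcas1, Naaladl2, Car12, Gsta1, Sln, Gchfr, Gfra2, Cited1 and Grem1. With at least 2 Pax3 UMIs required, Gsta1 turned from -0.72 to 0.16 on the log2 scale. Ndst4, Tcfl5 and Tll1 reached 10 CPM in the Pax3-positive group only, and Cadm2 in the Pax3-zero group only. Of the 27 called genes other than Pax3, 8 stayed past 1.5-fold in all 16 settings, namely Lrmda, Patj, Ndst4, Isg15, Fbn2, Cadm2, Gfra2 and Bcas1. Naaladl2 was past it in 6 of the 16. The settings largely reuse the cells from which these genes were called, so staying past 1.5-fold is no independent check.

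Transcripts induced by interferon were concentrated in few cells. Isg15 was at 12.5 and 3.47 CPM in Pax3-positive and Pax3-zero cells. Ifih1, a sensor of double-stranded RNA, was at 10.0 and 4.68 CPM, and the chemokine Ccl5 at 13.6 and 3.05 CPM. These 3 genes were grouped here after they were called, and each reached 10 CPM in the Pax3-positive group only. The cell counts that follow thus describe genes chosen for being higher in that group. Together the 3 genes reached at least 10 UMIs in 8 of 336 positive and 2 of 672 zero cells. In the positive group 5 cells, with 1 to 5 Pax3 UMIs each, held 313 of the 510 UMIs of these genes (61.4%), and 5 cells of the zero group held 145 of 316 (45.9%). Isg15 was counted in 8.33% and 7.59% of the cells of each group. Without the 1% of cells with most UMIs, the log2 ratio of Ccl5 was 1.40 in place of 2.16. It was 0.83 with all zero cells weighted by depth and 1.11 without matching, so it depended on the zero cells taken. With Myog at 0 and muscle genes under 0.2%, Ccl5 was at 0.34 and Ifih1 at 0.37, short of 1.5-fold, while Isg15 stayed past it in all 16 settings. The other measured genes of the interferon and MHC class I list stayed under 1.5-fold, B2m at 141 and 140 CPM, Ifitm3 at 397 and 379 CPM and Bst2 at 18.9 and 15.02 CPM.

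Where Pax3 was counted more than once, 7 of the 10 highest genes were farther from the zero cells, and 2 of the 10 lowest. These genes had been picked by their ratios in all Pax3-positive cells together. The share of all genes that were farther with 2 or more UMIs is not given. The counts therefore have no background and cannot show a trend with the Pax3 count. The 205 cells with 1 Pax3 UMI had a median of 37012 UMIs and the 131 cells with 2 or more a median of 41941, so these classes differ in depth. Lrmda was at 12.9 CPM in the zero cells, 16.5 with 1 UMI and 31.3 with 2 or more. Pde7b was at 198, 281 and 330 CPM in this order, and Lsamp at 130, 172 and 211 CPM. Pax7 was at 197, 195 and 224 CPM. Acta2 was at 122, 82.0 and 71.1 CPM, whereas Kirrel3 was at 39.4, 20.9 and 25.7 CPM and Nnat at 34.7, 19.1 and 28.0 CPM.

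A similar comparison was made among the KO cells outside the rule, with more Myog or muscle gene UMIs, which share no cell with the groups above. No limit on fibroblast markers was set there, so cells high in them were not kept apart. This comparison was added after the data were seen and matched 216 Pax3-positive to 432 Pax3-zero cells on depth within bins of muscle gene share. Of 8594 genes tested, 31 were higher (0.361%) and 40 lower (0.465%), 71 either way (0.826%). Of the 10 highest genes 8 had the same direction and none passed 1.5-fold, and of the 10 lowest 7 had the same direction and 1 passed. The share of all genes with the same direction in both comparisons is not given, so these counts have no background. Pde7b was at 306 and 229 CPM there, Lsamp at 168 and 129 CPM and Lrmda at 14.7 and 10.1 CPM. Ptpro was at 9.11 and 16.4 CPM, Acta2 at 236 and 337 CPM and Fbn2 at 13.5 and 19.6 CPM. Patj was at 44.9 and 50.3 CPM, Kirrel3 at 33.3 and 23.7 CPM and Spp1 at 1704 and 1362 CPM, each on the other side. Pax7 was at 117 and 109 CPM, Myf5 at 66.2 and 50.8 CPM and Myog at 349 and 464 CPM.

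**Figure D4:**
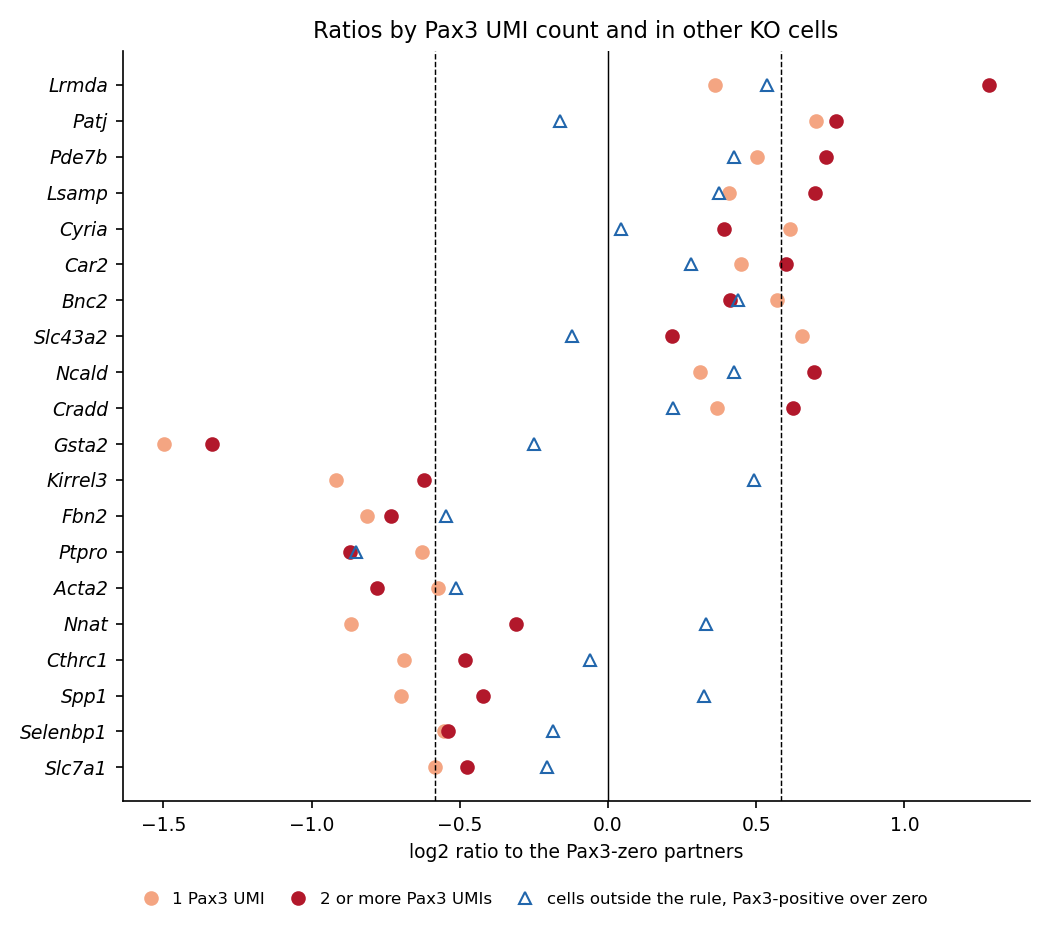
Log2 ratio to the matched Pax3-zero cells of the 10 highest and 10 lowest genes in cells with 1 Pax3 UMI (light circles), in cells with 2 or more (dark circles) and, for KO cells outside the rule, of Pax3-positive over their own Pax3-zero partners (triangles), with dashed lines at 1.5-fold. Lrmda, Pde7b and Lsamp lay right of 0 in all 3, and Patj and Slc43a2 lay left of 0 in cells outside the rule.

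WT cells, in which Pax3 was all but uncounted, differed from both KO groups in several of these genes. Lsamp was at 6.14 CPM, Pde7b at 46.7 and Patj at 1.56 CPM in WT cells under the rule, below both KO groups. Acta2 at 467, Nnat at 495 and Fbn2 at 139 CPM in WT cells were above both. With 1 clone per genotype, these differences between libraries have no replicate check.

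Genes that act with Pax3 in the embryo showed no call. Of 23 genes of the dermomyotome and migrating limb precursors, 13 had a mean of at least 5 CPM, none passed 1.5-fold, and their median log2 ratio was 0.02, the same to 2 decimals as over the 9890 genes at that level, of which 26 were higher and 32 lower. Met, the receptor of migrating precursors, was at 60.8 CPM in Pax3-positive and 56.2 CPM in Pax3-zero cells. Fgfr4 was at 219 and 198 CPM, Itm2a at 1937 and 1738 CPM and Dmrt2 at 14.7 and 14.5 CPM. Eya1, which lies upstream of Pax3 in the hypaxial somite, was at 274 and 275 CPM. Lbx1, a marker of migrating limb precursors, had 22 UMIs among the 14138267 of the Pax3-positive group and 37 among the 28234682 of the Pax3-zero group. The chemokine receptor Cxcr4 was at 17.5 and 14.8 CPM and Tbx1 at 7.57 and 10.7 CPM.

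Cells with the lowest summed count of these transcripts also had the smallest share with Pax3, as held for 11 of the 23 lists binned in this way. In 4 bins of the summed count of the dermomyotome list, each cell thinned to 20000 UMIs, Pax3 was counted in 4.98% (3.45 to 6.92%) of the lowest bin and in 9.36% (7.23 to 11.9%), 10.2% (7.98 to 12.7%) and 8.90% (6.80 to 11.4%) of the others. For the satellite cell list the shares were 6.27%, 8.87%, 8.94% and 9.52% from the lowest bin up, and for the Notch list 6.32%, 7.67%, 9.53% and 10.4%. For the other patterning genes they were 6.38%, 6.68%, 9.57% and 11.0%, and for cell cycle exit and p53 genes 6.68%, 8.14%, 9.16% and 9.46%. In 4 of the 23 lists the lowest bin had the largest share instead. For the neural crest list the shares were 10.3%, 10.0%, 6.30% and 6.34%, and for the secreted and growth factor genes 10.1%, 9.08%, 7.59% and 6.62%. For FGF and ERK feedback they were 10.4%, 6.11%, 7.41% and 8.76%, and for hypoxia and glycolysis 9.61%, 7.60%, 9.23% and 6.85%. The median depth before thinning was 34835 to 40402.5 UMIs across the bins of the dermomyotome list. A summed count follows the most abundant members. Of the 2776 CPM that the dermomyotome list summed to in Pax3-positive cells, most was Itm2a. Much of the sum of the cell cycle exit and p53 list was Cdkn1c. Some genes stand in several lists, and the number of lists expected without any link is not given. The count of 11 lists therefore has no background.

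Genes of the neural crest, the other lineage of Pax3, gave no call. Of 25 such genes 9 were measured, with a median log2 ratio of -0.19 that came to -0.07 in cells from 40000 UMIs and to 0.01 with at least 2 Pax3 UMIs. Sox10, which defines migrating crest and its glial and melanocyte derivatives, had 0 UMIs in both groups, Foxd3 1 and 3, and Tfap2a 3 and 8. These are raw counts out of 14138267 UMIs in the Pax3-positive and 28234682 in the Pax3-zero group. Ets1 was at 6.79 and 9.70 CPM, and Zic1, an activator of Pax3 in the neural plate border, at 11.5 and 13.9 CPM. Genes of melanocytes and Schwann cells summed to 4.60 and 4.82 CPM.

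Satellite cell and Notch genes were slightly above the zero cells in most of their members, and none was called. Both lists hold Notch1, Notch2, Notch3, Heyl, Hey1 and Hes1, so they are not separate results. Of 20 measured satellite cell genes 16 had a ratio above 1 and the median log2 ratio was 0.06, or 0.003 in cells under 40000 UMIs. The median over all 9890 genes at that level was 0.02. The share of all genes with a ratio above 1 is not given. Such counts, here and for the other lists, therefore have no background. Of 12 measured Notch genes, a pathway that keeps satellite cells undifferentiated, 11 had a ratio above 1 and the median was 0.09. The Notch target Heyl was at 112 and 98.9 CPM, the receptor Notch3 at 227 and 206 CPM, the adhesion protein Vcam1 at 50.9 and 47.2 CPM and Lix1 at 13.5 and 9.85 CPM. Genes of commitment and fusion had no call among 16, with the cell cycle inhibitor Cdkn1c at 2875 and 2578 CPM and the cofactor Mef2c at 18.5 and 15.2 CPM. Sarcomere genes had no call among 17 and a median of -0.06, with Ckm at 10.5 and 13.3 CPM and Tnnt1 at 21.2 and 26.8 CPM.

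**Figure D5:**
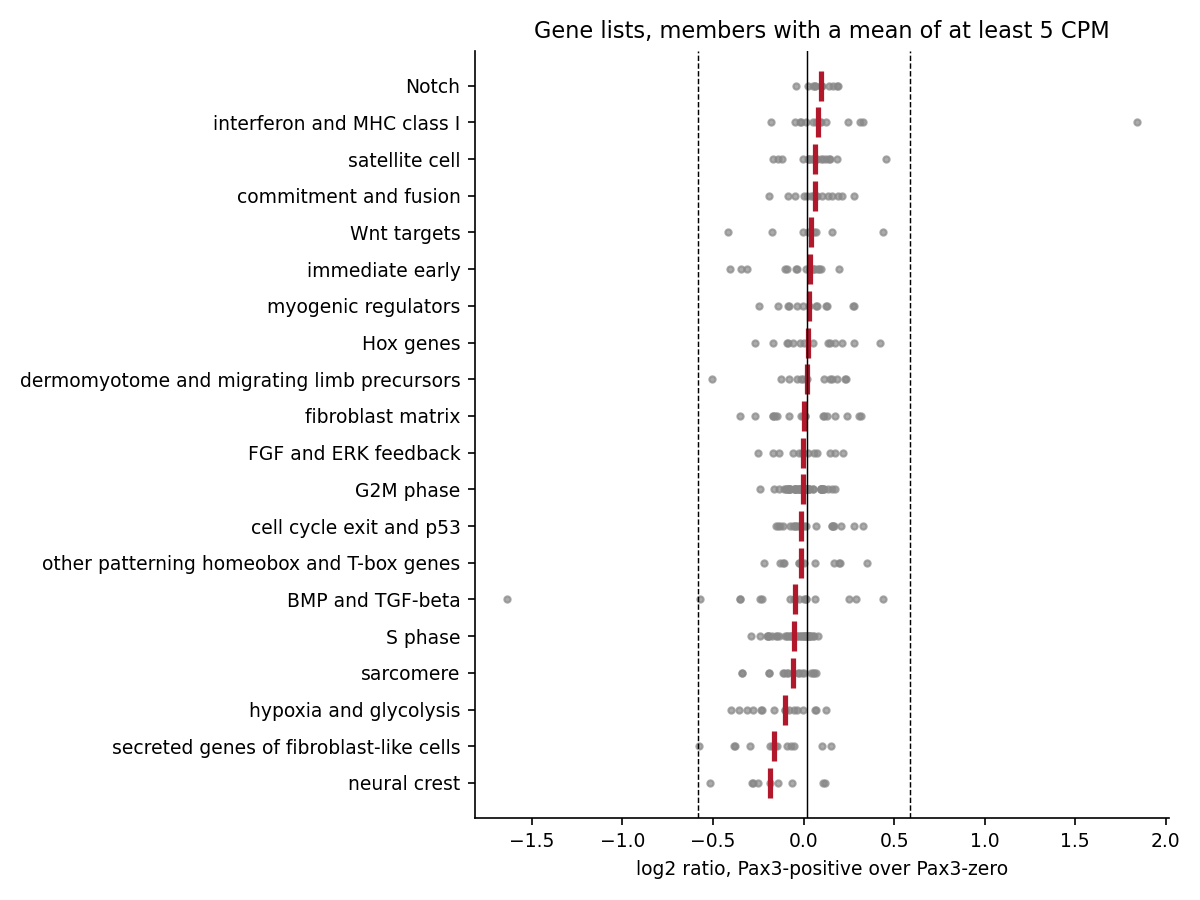
Log2 ratio of Pax3-positive over Pax3-zero cells in each gene list with at least 8 members whose mean reached 5 CPM, with those members as dots and their median as a red bar, beside the median of all genes at that level (thin line) and 1.5-fold (dashed lines). The medians drawn ran from -0.19 for neural crest to 0.09 for Notch, and Isg15 and Grem1 were the members past the dashed lines in the lists drawn.

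Lists of proliferation and signalling had few calls. Of 40 S phase genes none was called and the median log2 ratio was -0.05, and of 52 G2M genes none was called and 26 had a ratio above 1. None of 22 genes of cell cycle exit and p53, of 13 of FGF and ERK feedback, of 8 Wnt targets or of 17 immediate early genes was called. The Wnt target and stem cell receptor Lgr5 was at 51.3 and 37.9 CPM, the immediate early gene Ier3 at 58.6 and 77.8 CPM and the ERK phosphatase Dusp6 at 22.9 and 27.2 CPM. Among 17 BMP and TGF-beta genes Grem1, a BMP antagonist, was lower at 3.82 and 11.9 CPM. It was counted in 4.46% and 5.65% of cells, and 79.6% of its UMIs in the positive group were in 5 cells. In cells with a Pax7 UMI its log2 ratio was -0.24 in place of -1.64. Tgfb2 was at 543 and 457 CPM and the activin antagonist Fst at 17.6 and 22.5 CPM.

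Hypoxia and glycolysis genes lay below the zero cells in most members without a call. Of 16 measured 3 had a ratio above 1, and the median was -0.10, where over all genes at that level it was 0.02. The carbonic anhydrase Car9 was at 25.6 and 32.8 CPM and the glucose transporter Slc2a1 at 42.4 and 51.4 CPM. Of 14 secreted and growth factor genes, a list taken from an earlier result on the fibroblast-like cells of this library, 2 had a ratio above 1 and the median was -0.16. The fibroblast matrix list had no call among 18 genes, with Col3a1 at 558 and 556 CPM and Col5a2 at 202 and 163 CPM. Markers of endothelial, blood and epithelial cells summed to 8.06, 3.40 and 1.27 CPM in Pax3-positive cells and to 7.40, 2.87 and 1.52 CPM in Pax3-zero cells. Neural genes summed to 276 and 256 CPM, cartilage and bone genes to 75.5 and 73.6 CPM and adipocyte genes to 121 CPM in both, with no call. In the smooth muscle and pericyte list Acta2 was called among 6 measured genes, and Tagln was at 36.2 and 52.4 CPM.

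No positional gene was called. Of 39 Hox genes 14 were measured, with a median log2 ratio of 0.03, Hoxa10 among them at 17.4 and 20.9 CPM and Hoxc9 at 12.2 and 10.0 CPM. Of 13 other patterning genes none was called, with Barx2 at 27.4 and 21.5 CPM. Of the genes near Pax3 in the genome 4 were measured and none was called, with its neighbour Epha4 at 43.4 and 39.0 CPM and Farsb at 53.6 and 55.3 CPM.

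Cells with high fibroblast markers gave 15 Pax3-positive cells (819368 UMIs, median 54525 per cell) and 15 matched Pax3-zero cells (819560 UMIs, median 53927). Only 30 Pax3 UMIs were in them. Pax7 was at 14.6 and 24.4 CPM, Myf5 at 12.2 and 13.4 CPM and Myod1 at 20.8 and 37.8 CPM, each below both groups with low fibroblast markers. At 1.5-fold and at least 50 CPM, 252 of 3428 genes were higher (7.35%) and 159 lower (4.64%), 411 either way (12.0%).

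The genes with the largest ratios in these cells came from few cells. Nkain2 had 129 UMIs in 3 positive cells, of which 73.6% were in 1 cell, and 0 in zero cells, at least 43.0-fold higher against a floor of 3 counts in the group. The hormone gene Cck had 458 UMIs in 2 positive cells and 26 in 1 zero cell, and Ly6a 44 UMIs in 6 positive cells, 77.3% of them in 1 cell, and 0 in zero cells. Ror1, a Wnt5a receptor, was at 53.7 and 4.88 CPM and in 7 and 3 cells. Nckap5 was at 68.3 and 8.54 CPM, and Dpyd, an enzyme of pyrimidine breakdown, at 121 and 18.3 CPM and in 9 and 6 cells. On the lower side 97.8% of Col19a1 UMIs of the zero group were in 1 cell, and 87.0% of Cdkn1c UMIs. Grik1 was at 22.0 and 207 CPM, Cemip at 8.54 and 75.7 CPM, Alcam at 12.2 and 56.1 CPM and Ndrg1 at 13.4 and 57.4 CPM, each counted in 3 to 9 cells of a group.

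Interferon and MHC class I genes were the list with the highest median in these cells among those with at least 8 measured members. Of 12 measured genes 7 were at least 1.5-fold higher and 0 were lower. Their median log2 ratio was 0.67, where over all 9424 genes with a mean of at least 5 CPM 1477 were higher and 1056 lower and the median was 0.03. The antiviral membrane protein Ifitm3 was counted in all 15 cells of both groups, at 503 and 165 CPM (ratio 3.05, 2.51 to 3.74). H2-K1 was at 53.7 and 31.7 CPM and B2m, short of 1.5-fold, at 275 and 204 CPM. Fibroblast matrix genes had 7 higher and none lower of 19, with Col3a1 at 1644 and 1325 CPM and Pdgfra at 30.5 and 14.6 CPM. Pde7b was at 273 and 311 CPM in these cells and Lsamp had 9 and 3 UMIs.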

How the data were processed

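Single-cell 3' libraries of 1 MyoD-KO and 1 MyoD-WT clone were used. The deposited files hold raw counts of UMIs for 25906 genes in each barcode, which per the file headers came from Cell Ranger 7.2.0. The submitters' processing notes also list GRCm39 and Seurat, with no role for either. The annotation release is not given in the sources used here. Gene order was read from a reference of a different build, and positions are not printed.

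The members and gene lists were chosen with earlier results of these data known. Counts were read with Python 3.11.15, numpy 2.4.6, scipy 1.17.1 and pandas 2.3.3. Each Pax3-positive cell, from the deepest down, took the 2 unused Pax3-zero cells (1 in cells with high fibroblast markers) nearest in log depth within 10%. UMIs were summed per group and scaled to CPM (UMIs per 1000000 UMIs), ratios carry an exact conditional 95% interval and shares an exact Clopper-Pearson interval. Those intervals treat UMIs as independent and cover counting error only. Genes were called at 1.5-fold with at least 10 CPM in the higher group (50 CPM in cells with high fibroblast markers). With 1 library per genotype no test was run and no p-value is given.

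Named are the regulators, the 10 highest and 10 lowest ratios with at least 20 CPM in the higher group (6 and 6 at 50 CPM in cells with high fibroblast markers), and up to 4 members of each list with the largest ratios. The highest and lowest leave out the genes of the selection rule, Gm and Rik models, and sex-linked, ribosomal protein and mitochondrial genes. Other list members were named for their known role after their values were seen. A few genes are not reported here by name. There were 29 lists with 538 genes, of which 535 are in the files. List counts and medians use the members whose mean reached 5 CPM. A fold against a group at 0 uses a floor of 3 counts over the group. Of the gene symbols 18 are shared by more than 1 gene, and genes with near-identical copies, such as Gsta1 and Gsta2, may share reads.

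Doublets were scored with Scrublet in scanpy 1.11.5, which called 144 of 5782 KO cells passing the gene and mitochondrial filters. Called cells and the top 6% of scores, 363 in all, were marked and left out in an alternative. Cell cycle phases came from scanpy, and TMM factors from edgeR 4.0.16. The comparison was tested on simulated counts, drawn by Poisson for each group as a whole. They lacked the uneven spread over cells seen for some genes, so that case was not covered. Alternatives changed the partners, matching, scaling, CPM minimum, fold, Pax3 count, depth range and cell filters.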

Additional observations from a re-analysis of the deposited data

How the results depend on the processing

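Shares in brackets are of the genes tested in that setting, called either way. In cells with low fibroblast markers 10 genes were higher and 18 lower (0.327%). The counts of called genes were 19 and 33 (0.607%) with 1 partner per positive cell and 424 and 647 (7.73%) with no CPM minimum. They were 1 and 1 (0.0591%) at 50 CPM, and 6 and 2 (0.0935%) at 2-fold. With at least 2 Pax3 UMIs, which left 131 positive cells, they were 96 and 71 (1.93%). They were 56 and 50 (1.24%) under 40000 UMIs and 36 and 42 (0.903%) from 40000 UMIs. With Myog at 0 and muscle genes under 0.2% they were 27 and 35 (0.724%). Matched within cell cycle phase 34 were lower (0.560%), and without the top 1% of cells for each gene 11 (0.230%). In cells with high fibroblast markers 252 genes were higher and 159 lower (12.0%). The counts were 1136 and 817 (24.1%) with no CPM minimum, 87 and 44 (8.04%) at 100 CPM, and 74 and 29 (3.00%) at 2-fold. They were 553 and 325 (25.2%) with at least 2 Pax3 UMIs. Under 40000 UMIs, where 3 positive cells were left, they were 1047 and 1131 (56.6%). They were 538 and 274 (23.5%) with Myog at 0 and muscle genes under 0.2%, and 687 and 392 (30.6%) in cells with a Pax7 UMI. The lower count was 83 (10.0%) with all zero cells weighted by depth, 79 (7.94%) without matching and 255 (14.7%) with the fibroblast limit at 5 per 10000. The cause of these moves was not tested. The share of cells with a Pax3 UMI moved to 8.34% after thinning, and to 5.26% in cells with high fibroblast markers under 40000 UMIs. The 1-partner setting is the main one for those cells. Over 16 settings, 26 of 27 called genes kept their direction. Gsta1 did not, at 0.16 with at least 2 Pax3 UMIs. Of the 20 highest and lowest genes 19 kept theirs, and Spp1 was at 0.17 in cells with a Pax7 UMI. The settings largely reuse the cells from which these genes were picked, so a kept direction is no independent check. The log2 ratio of Lrmda ran from 0.77 to 1.12, of Patj from 0.70 to 0.84, of Pde7b from 0.57 to 0.78 and of Acta2 from -0.84 to -0.35. The list medians kept their sign in all 16 settings for the Notch, satellite cell, commitment and fusion, interferon and myogenic regulator lists above 0, and for the hypoxia, sarcomere and secreted gene lists below it. No paired analysis was possible because each genotype is 1 library and the results come from no test. At this depth a Pax3-zero cell may hold the transcript, and genes under 10 CPM were not called.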
